A study of Homo sapiens with 14 samples.

Results

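The genes described here encode 7 proteins that direct messenger RNAs to decay: BTG1, BTG2, TOB1 and TOB2 of the BTG/TOB family, and ZFP36, ZFP36L1 and ZFP36L2 of the ZFP36 family. They are taken by symbol, a set proposed with earlier results of these data known, and they are 7 of the 60876 genes with a transcript in the files. Their mRNAs were measured by RNA-seq of poly(A) RNA from MDA-MB-231, an established human triple-negative breast cancer cell line, in 14 libraries. The control cells were untreated according to the labels (the study's results also speak of DMSO-treated controls), and the other cells were exposed to 5 µM of either RBI2 or CX-5461, with labelled times of 10, 30 and 120 min. Each of the 7 groups has 2 replicates, and nothing states that these were separate cultures, so that p-values measure the spread between these samples, which may be technical. RBI2 is a small molecule that inhibits ribosome biogenesis, and CX-5461, the study's positive control, inhibits initiation by RNA polymerase I. The times are those of the labels, while the names under which the files were deposited carry other time codes.

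The libraries were 14112299 to 24849354 estimated reads deep (median 16305236). Control replicate 2 stood apart from the other libraries: mitochondrial genes took 20.6% of its reads, against 8.14% to 11.3% elsewhere, and 1412 genes lay more than 2-fold apart between the control replicates, against 461 to 629 genes in the treated pairs. Calls of the 7 genes against the control are therefore also given without it. Of the markers of the line, VIM was the most abundant, at 2084 to 2694 TPM (Salmon's level per transcript length, scaled to a fixed total in each library), and CD44, AXL and CAV1 were abundant as well. The oestrogen and progesterone receptor genes ESR1 and PGR did not exceed 0.205 TPM and CDH1 did not exceed 0.285 TPM, while ERBB2 (14.8 to 22.9 TPM), EPCAM (11.4 to 22.4 TPM) and GATA3 (1.82 to 3.48 TPM) were not absent. Leukocyte and endothelial markers did not exceed 0.452 TPM, and of the fibroblast markers COL1A1 reached 2.16 TPM.

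Most mRNAs begin to decay when their poly(A) tail is shortened by the CCR4-NOT complex, after which the cap is removed and the body of the RNA is degraded. Proteins of the BTG/TOB family bind the catalytic subunits CNOT7 and CNOT8 of that complex and bring it to mRNAs, and they are known for slowing cell proliferation. Proteins of the ZFP36 family bind AU-rich elements in 3′ untranslated regions through a pair of CCCH zinc fingers and recruit CCR4-NOT to these mRNAs, many of which encode cytokines and growth regulators. BTG2 and ZFP36 are also known as early response genes, whose own mRNAs are short-lived.

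The ZFP36 proteins recognise the heptamer TATTTAT (written with T as in the annotation), so the 3′ untranslated regions of the 7 mRNAs were searched for it on the sense strand. In GENCODE 44 on GRCh38, 32.1% of 18780 MANE transcripts (the reference transcript agreed for each coding gene) hold the heptamer in that region. Each of the ZFP36 family mRNAs held 3 heptamers, of which 1 lay within the longer TTATTTATT. BTG1, BTG2 and TOB2 held 1 each. Only MANE transcripts were searched, and that of BTG1 carried 23.4% of the reads of the gene. TOB1 held no TATTTAT in its 757 bases. Long regions hold more such matches, and the share that hold as many among the regions within 20% of the same length was 1.46% for ZFP36 (708 bases), 5.2% for ZFP36L1 (1871 bases), 4.65% for ZFP36L2 (1917 bases), 45% for BTG2 (2164 bases), 52.9% for TOB2 (2817 bases) and 61.2% for BTG1 (3802 bases). A match is a description of the sequence, and binding was not measured. The sites are shown because the ZFP36 family mRNAs hold more of them than the BTG/TOB mRNAs, with the heptamer in capitals and, for each ZFP36 family gene, the site within the longer motif.
BTG1 (chr12:92140770-92140798, minus strand): aatagatttctTATTTATctgaaggtata
BTG2 (chr1:203307528-203307556, plus strand): aaatgaagagcTATTTATatatattattt
TOB2 (chr22:41435380-41435408, minus strand): tcgcaagtcctTATTTATatgtgaggctg
ZFP36 (chr19:39409196-39409224, plus strand): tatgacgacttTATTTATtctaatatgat
ZFP36L1 (chr14:68788077-68788105, minus strand): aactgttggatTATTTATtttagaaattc
ZFP36L2 (chr2:43223448-43223476, minus strand): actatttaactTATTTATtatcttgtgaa

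The 7 genes are compact, and the MANE transcript of each has 2 exons, which holds for 7.09% of 19061 such genes. BTG1 (ENSG00000133639) lies on chromosome 12 at 92140278 to 92145846, BTG2 (ENSG00000159388) on chromosome 1 at 203305491 to 203309602, TOB1 (ENSG00000141232) on chromosome 17 at 50862223 to 50867978 and TOB2 (ENSG00000183864) on chromosome 22 at 41433494 to 41446801. ZFP36 (ENSG00000128016) lies on chromosome 19 at 39406847 to 39409412, ZFP36L1 (ENSG00000185650) on chromosome 14 at 68787660 to 68796253 and ZFP36L2 (ENSG00000152518) on chromosome 2 at 43222402 to 43226606. BTG1 overlaps LINC01619 on its own strand and BTG1-DT on the other, TOB1 overlaps TOB1-AS1, ZFP36L1 overlaps ENSG00000289626 on its own strand and ZFP36L2 overlaps ENSG00000287387, so that reads from the overlaps may be divided between genes. For 5 of the genes, a single transcript carried at least 97.2% of the reads over all libraries. BTG1 was the exception among the BTG/TOB genes: BTG1-203, which has no defined coding sequence, carried 76.5% of its reads and the MANE transcript BTG1-201 carried 23.4%, with a range of 17.7% to 31.3% over the libraries. The reads of ZFP36 were divided between ZFP36-203 (62.3%) and another coding transcript (37.1%), whose shares ran from 0% to 100% in single libraries, and only the sum for the gene was used.

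The level per transcript length separated the genes into an abundant and a scarce end. BTG1 was the highest, with a median of 44.7 TPM over the libraries (24.6 to 50.3), above 79.3% of the genes tested. Of that level, 90.9% came from the short BTG1-203 and 8.84% from the MANE transcript, and in control replicate 2 BTG1 (24.6 TPM) lay below ZFP36L1 (27.0 TPM). ZFP36L1 followed at 30.8 TPM (16.5 to 34.9) and ZFP36L2 at 21.5 TPM (16.0 to 23.97), ranges that overlap: in the CX-5461 10 min libraries ZFP36L1 lay below both ZFP36L2 (20.6 and 20.4 TPM) and TOB1 (20.8 and 17.9 TPM). TOB2 at 11.8 TPM (8.63 to 15.5), TOB1 at 11.6 TPM (7.93 to 20.8) and ZFP36 at 8.22 TPM (5.97 to 13.1) had overlapping ranges and are not separated in that order. BTG2 was the lowest at 1.46 TPM (0.630 to 3.07), above 21.6% of the genes tested, and its value rests on 39 to 132 reads per library, against 151 to 1583 for the others. For comparisons between libraries, read counts were scaled to the size of each library and are given as CPM.

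**Figure D1:**
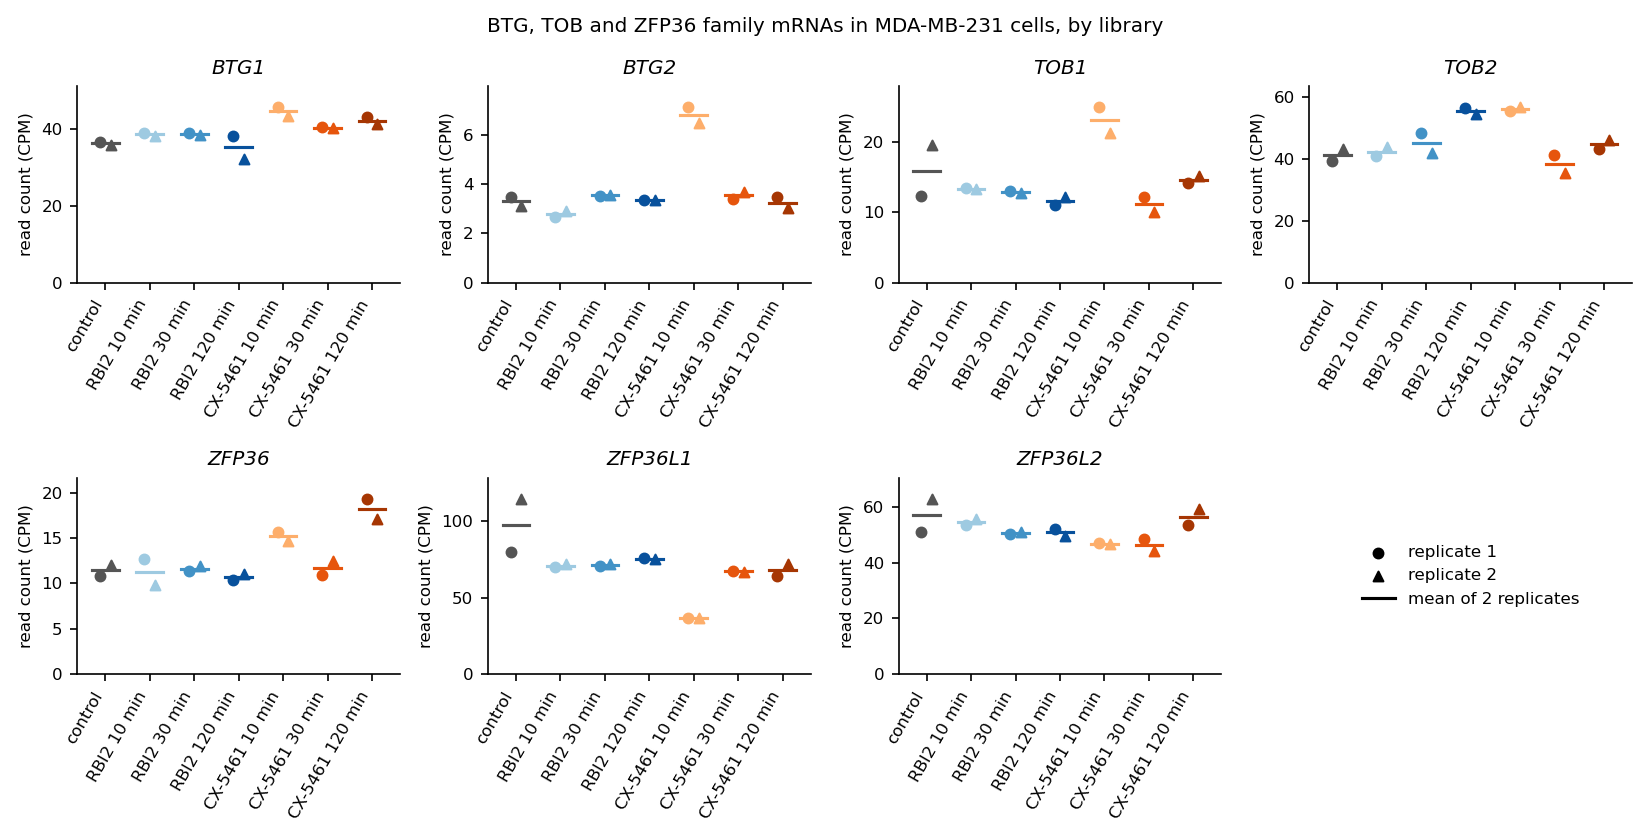
Read counts of the 7 mRNAs in each library, scaled to library size (CPM) on a linear axis from 0, by group, with a bar at the mean of 2 replicates. The CX-5461 10 min libraries lie below all others for ZFP36L1 (36.6 and 36.7 CPM) and above all others for BTG2 and TOB1.

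The question put to each compound is which of these mRNAs changed against the control. With CX-5461 labelled 10 min, ZFP36L1 fell, and BTG2 and TOB2 rose: 3 of the 7 genes passed at an adjusted p under 0.05, where 4.77% of the 15426 genes tested passed. BTG2 and ZFP36L1 also changed by at least 2-fold, as did 1.64% of all genes. These 3 are members of both families, and the direction was not shared between them. DESeq2 called 3 of the 7 as well, where it called 5.62% of all genes. The median log2 fold change of the 7 was 0.41, against -0.04 over all genes tested.

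ZFP36L1, which targets AU-rich mRNAs, had 79.7 and 115 CPM in the control libraries. It had 36.6 and 36.7 CPM in the CX-5461 10 min libraries, below each of the other 12, which ran from 64.5 CPM upward. The log2 fold change was -1.40 (SE 0.14, adjusted p = 0.000288), and without control replicate 2 it was -1.12 (adjusted p = 1.16e-05). On the TPM scale the same libraries had 16.5 and 16.5 TPM, against 27.0 to 34.4 TPM in the control. The call was lost where only the 4 libraries compared entered the model (log2 fold change -1.39, adjusted p = 0.188), and it held in the other 21 of 22 alternatives.

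BTG2, a coactivator of deadenylation and a known p53 target, moved the other way. It had 3.48 and 3.12 CPM in the control and 7.11 and 6.45 CPM in the CX-5461 10 min libraries. All other libraries lay between 2.67 and 3.69 CPM, so that the group did not overlap with any other. The log2 fold change was 1.04 (SE 0.15, adjusted p = 0.00336), and without control replicate 2 it was 0.96 (adjusted p = 0.0155). The call was lost with an offset for transcript length (1.15, adjusted p = 0.073) and with only the 4 libraries compared (1.05, adjusted p = 0.306).

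TOB2, which joins the poly(A)-binding protein to the deadenylase, had 39.3 and 43.1 CPM in the control and 55.3 and 56.6 CPM in the CX-5461 10 min libraries (log2 fold change 0.44, SE 0.10, adjusted p = 0.0351). Without control replicate 2 the difference was 0.51 (adjusted p = 0.0313), but the call held in 14 of 22 alternatives only and was lost without either CX-5461 10 min library (adjusted p = 0.131 and 0.142). TOB1, its paralogue, had 24.9 and 21.3 CPM in the CX-5461 10 min libraries, the highest of the series, and 12.2 and 19.5 CPM in the control. Its log2 fold change of 0.55 did not pass (SE 0.18, adjusted p = 0.122), and the control libraries were the widest pair of this gene. Without control replicate 2 the value was 0.92, and leaving out single libraries moved it between 0.24 and 0.92. TOB1 did pass with a correction for GC content and length (0.68, edgeR adjusted p = 0.0126), where 7.51% of all genes passed. It also passed with no filter on low counts (0.59, edgeR adjusted p = 0.00844), where 6.78% of all genes passed.

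The other 3 genes did not pass with CX-5461 labelled 10 min. All 7 genes had an unadjusted p under 0.05 with edgeR, a limit at which no share of all genes is given here or below. BTG1, the most abundant, had 45.6 and 43.4 CPM against 36.6 and 35.9 CPM in the control (log2 fold change 0.30, adjusted p = 0.0898). ZFP36, also known as tristetraprolin, had 15.7 and 14.7 CPM against 10.8 and 12.1 CPM (0.41, adjusted p = 0.121). ZFP36L2, the paralogue of ZFP36L1, had 46.9 and 46.8 CPM against 51.0 and 62.9 CPM (-0.28, adjusted p = 0.153). The difference of ZFP36L2 was thus in the direction of ZFP36L1 and that of ZFP36 was not, though neither was past the threshold. Without control replicate 2 the values were 0.28 for BTG1, 0.49 for ZFP36 and -0.12 for ZFP36L2. Leaving out control replicate 1 instead gave 0.31 for BTG1 and -0.43 for ZFP36L2. BTG1 passed with edgeR after adjusting for GC and length (0.44, adjusted p = 0.031), while ZFP36 and ZFP36L2 did not.

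With CX-5461 labelled 30 min, none of the 7 genes passed with edgeR and none with DESeq2, where 0% and 0.162% of all genes passed. An unadjusted p under 0.05 was found for 3 genes, a limit at which no share of all genes is given. These 3 were ZFP36L1 (log2 fold change -0.53, adjusted p = 0.213), TOB1 (-0.50, 0.213) and ZFP36L2 (-0.30, 0.213), each with CPM below both control libraries. Leaving out control replicate 2 brought them to -0.24 for ZFP36L1 (adjusted p = 0.96) and to -0.13 for both TOB1 (0.967) and ZFP36L2 (0.96). Leaving out control replicate 1 made all 3 pass (-0.78, -0.81 and -0.45), where 39.3% of all genes passed. ZFP36L1 was at 67.8 and 66.6 CPM, BTG2 at 3.40 and 3.69 CPM, TOB1 at 12.2 and 10.05 CPM and TOB2 at 41.1 and 35.4 CPM. These levels lay outside those of the CX-5461 10 min libraries for all 4 genes, which are also the genes that differed among the times of CX-5461. The share of all genes separated in this way was not computed. Between the compounds at 10 min, pairs of libraries did not overlap for 57.3% of all genes. With CX-5461 labelled 120 min, 0 of 7 passed with edgeR, where 0.0778% of all genes passed, and 3 had an unadjusted p under 0.05. DESeq2 called 1, ZFP36L1, where it called 0.525% of all genes. ZFP36 had 19.4 and 17.1 CPM there, the highest levels of the series, with a log2 fold change of 0.68 (SE 0.14, adjusted p = 0.23). ZFP36L1 had 64.5 and 71.8 CPM (-0.51, adjusted p = 0.279). With control replicate 2 left out, ZFP36L1 stood at -0.25 (adjusted p = 0.265) and ZFP36 at 0.73 (0.264).

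The times of CX-5461 were also compared with each other, in the model of all libraries, so that the control libraries enter the estimate of the spread but not the differences. BTG2 (adjusted p = 0.00393), ZFP36L1 (0.00857), TOB1 (0.0276) and TOB2 (0.0388) differed among the 3 times by edgeR's F test, 4 of 7 genes where 2.87% of all genes passed. The largest log2 difference between times was 1.06 for BTG2, 0.89 for ZFP36L1, 1.06 for TOB1 and 0.55 for TOB2, each between the libraries labelled 10 min and a later label. ZFP36 differed by up to 0.64 and did not pass (adjusted p = 0.0701). The 4 calls depend on both CX-5461 10 min libraries: most were lost with either left out, where that group is a single library. The difference of BTG2 was 1.18 without replicate 2. The differences themselves moved little: without replicate 1 and without replicate 2 they were 0.89 and 0.88 for ZFP36L1, 0.54 and 0.52 for TOB2 and 0.92 and 1.16 for TOB1, and BTG2 had 1.02 without replicate 1. The calls held in 20 of 22 alternatives for BTG2 and ZFP36L1, in 13 for TOB1 and in 10 for TOB2. Those of ZFP36L1 and TOB2 also fell short of the limit of 2-fold, which is not among the 22. The offset for transcript length ended those of BTG2 (1.09, adjusted p = 0.12), TOB1 (1.09, 0.0606) and TOB2 (0.51, 0.13). The count was 6 without either control library, where 14.5% (without replicate 1) and 13.2% (without replicate 2) of all genes passed.

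**Figure D2:**
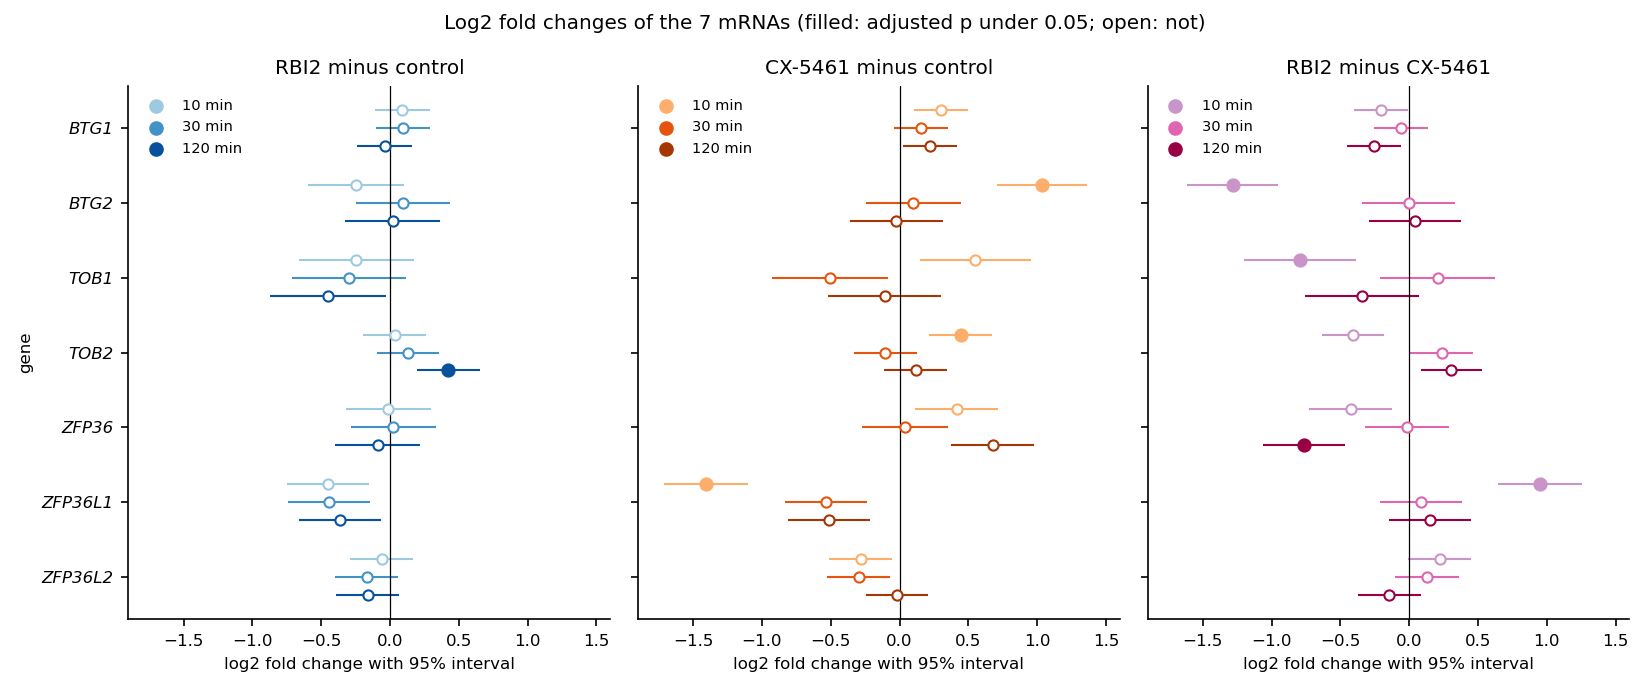
Log2 fold changes of the 7 mRNAs with 95% intervals, against the control for each compound and between the compounds, at each labelled time; filled points passed an adjusted p under 0.05. The filled points are TOB2 for RBI2 120 min, BTG2, TOB2 and ZFP36L1 for CX-5461 10 min, and BTG2, TOB1, ZFP36L1 (10 min) and ZFP36 (120 min) between the compounds.

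For RBI2, the only member to pass against the control with edgeR was TOB2, in the libraries labelled 120 min. With RBI2 labelled 10 min, 0 of 7 passed with edgeR and with DESeq2, where 0.201% and 1.03% of all genes passed. An unadjusted p under 0.05 was found for 1 gene. With RBI2 labelled 30 min, 0 of 7 passed with edgeR and with DESeq2, where 0.0713% and 3.66% of all genes passed. Again 1 gene had an unadjusted p under 0.05. With RBI2 labelled 120 min, 1 of 7 passed, where 18% of all genes passed. TOB2 was at 56.2 and 54.2 CPM against 39.3 and 43.1 CPM in the control, with a log2 fold change of 0.42 (SE 0.10, adjusted p = 0.0243). The share over all genes was 8.27% without control replicate 2, and 0.448% and 0.988% without RBI2 120 min replicate 1 or 2, where TOB2 did not pass. The TOB2 call was also lost once GC content and length were corrected for (0.25, adjusted p = 0.0922). It held at 0.48 without control replicate 2 (adjusted p = 0.0265).

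Among the other genes under RBI2, ZFP36L1 had log2 fold changes against the control of -0.45 at 10 min (adjusted p = 0.244), -0.45 at 30 min (0.123) and -0.36 at 120 min (0.0832, edgeR), and TOB1 had -0.45 at 120 min (0.115). The 6 RBI2 libraries of ZFP36L1 lay between 70.2 and 76.1 CPM, close to control replicate 1 at 79.7 CPM and well below control replicate 2 at 115 CPM. Leaving out control replicate 1, so that control replicate 2 alone stood for the control, brought ZFP36L1 to -0.70, -0.69 and -0.61 at the 3 labels. TOB1 then stood at -0.55, -0.61 and -0.77, and ZFP36L2 at -0.32 at both 30 and 120 min. Leaving out control replicate 2 instead brought ZFP36L1 to -0.19, -0.17 and -0.08, and TOB1 at 120 min to -0.09. Over all removals of a single library, the highest values of TOB1 at 10 and 30 min were 0.10 and 0.06. For ZFP36L2 at 30 and 120 min they were -0.02 and -0.01. ZFP36L1 and TOB1 are the members whose control libraries differ most as a ratio of CPM, and control replicate 2 is also the library with the highest share of mitochondrial reads, whose part in these values was not tested. On the TPM scale control replicate 2 (27.0 TPM of ZFP36L1) lay below control replicate 1 (34.4 TPM), and the RBI2 libraries, at 30.3 to 34.9 TPM, overlapped the control. BTG2 lay between 2.67 and 3.56 CPM and ZFP36 between 9.88 and 12.8 CPM in the RBI2 libraries. Among the times of RBI2, 0 of 7 genes passed with edgeR, where 1.67% of all genes passed. TOB2 alone had an unadjusted p under 0.05 and was called by DESeq2, as were 6.35% of all genes.

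The compounds were then compared with each other at the same dose and label, 21 comparisons of a gene at a time, with p-values adjusted over all genes tested. At 10 min, 3 of 7 genes passed, where 3.06% of all genes passed. BTG2 was lower with RBI2 (2.67 and 2.90 CPM) than with CX-5461 (7.11 and 6.45 CPM), by -1.28 on the log2 scale (95% interval -1.61 to -0.95, adjusted p = 0.000947). ZFP36L1 was higher with RBI2 (70.2 and 71.8 CPM) than with CX-5461 (36.6 and 36.7 CPM), by 0.95 (0.65 to 1.26, adjusted p = 0.00355). TOB1 was lower with RBI2 (13.4 and 13.2 CPM), by -0.79 (-1.20 to -0.39, adjusted p = 0.0453), and that call held in 9 of 22 alternatives. The libraries of the compounds did not overlap for any of the 7 genes, as for 57.3% of all genes. The ZFP36L1 call held in 22 of 22 alternatives, which leave out the limit of 2-fold that its 0.95 did not reach. That of BTG2 was lost with the offset for transcript length (-1.34, adjusted p = 0.0558). DESeq2 called TOB2 as well (-0.42, adjusted p = 0.00908).

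At 30 min, 0 of 7 genes differed between the compounds with edgeR and with DESeq2, where 0.013% and 0.214% of all genes passed. TOB2 alone had an unadjusted p under 0.05. The 95% intervals of the 7 differences lay between -0.34 and 0.63. At 120 min, 1 of 7 passed, where 16.1% of all genes passed. ZFP36 was lower with RBI2 (10.4 and 11.1 CPM) than with CX-5461 (19.4 and 17.1 CPM), by -0.77 (-1.07 to -0.47, adjusted p = 0.00959). The call was lost without CX-5461 120 min replicate 2 (-0.82, adjusted p = 0.0526) and without either RBI2 120 min library (adjusted p = 0.0956 and 0.0745). DESeq2 called TOB2 as well, at 0.34 (adjusted p = 0.0221).

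BTG2 and ZFP36L1 showed the widest relative spans along with TOB1: the highest library exceeded the lowest by 2.66-fold for BTG2, 3.13-fold for ZFP36L1 and 2.48-fold for TOB1, against 1.42-fold for BTG1 and 1.43-fold for ZFP36L2. Over the 14 libraries, the log2 CPM of ZFP36L1 and BTG2 had a Pearson correlation of -0.86 and a Spearman correlation of -0.49. The libraries share their preparation, and the CX-5461 10 min libraries lie apart from the others on both genes. For ZFP36L1 and TOB1 the Pearson correlation was -0.52, and -0.89 without control replicate 2, in which both mRNAs were high. BTG2 and TOB1 had a Pearson correlation of 0.68 but a Spearman correlation of 0.05. For ZFP36L1 and ZFP36L2 these were 0.65 and 0.56, and for BTG1 and ZFP36L1 they were -0.74 and -0.88. These are descriptions over libraries of 7 groups, with no test.

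**Figure D3:**
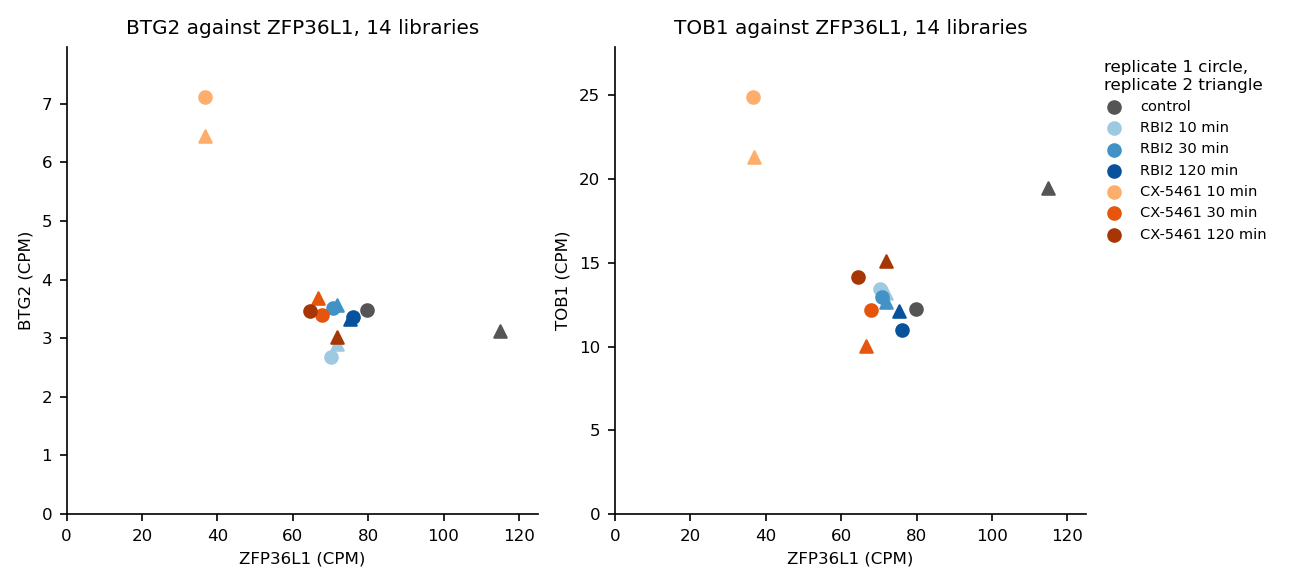
BTG2 (left) and TOB1 (right) against ZFP36L1 in the 14 libraries, in CPM on linear axes, coloured by group, with circles for replicate 1 and triangles for replicate 2. The CX-5461 10 min libraries lie at the upper left of both panels, at 36.6 and 36.7 CPM of ZFP36L1, and control replicate 2 lies at the right at 115 CPM.

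Among the 10570 genes tested with a mean of at least 5 CPM, those whose log2 CPM was most alike over the 14 libraries were found by Pearson correlation. They were CSTF1 (0.97), DNMBP (0.95) and ZSCAN12 (0.95) for ZFP36L1, and UBALD2 (0.94), ING1 (0.94) and SMOX (0.93) for BTG2. For TOB1 they were PPM1D (0.94), ZBTB10 (0.93) and B3GNT5 (0.92), and for TOB2 they were PLXNA3 (0.92), KDM6B (0.90) and IFFO2 (0.87). For ZFP36L2 they were ATP8B1 (0.96), CLMP (0.96) and NUCKS1 (0.95), for BTG1 they were KLF4 (0.91), CA2 (0.89) and LAPTM4B (0.88), and for ZFP36 they were FICD (0.88), TSR1 (0.82) and MAOA (0.82). Each value is the highest of many and was not tested.

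Since BTG2 and ZFP36L1 moved in opposite directions, the sequences at their start sites are shown. RefSeq windows of 300 bases (GRCh38.p14, 250 before and 50 after a start site) were at hand for 6 of the 7 genes, in 8 windows. They were searched on both strands, and the share of 35116 RefSeq windows of the same length that hold each motif is given beside it. The cyclic AMP response element TGACGTCA was held by 1.85% of the windows and its core TGACG, which overlaps it, by 24.6%. The AP-1 motif TGANTCA was held by 7.71%, the GC box GGGCGG by 45%, the motif CCAAT by 34.6%, the TATA box TATAAA by 11.5%, the E box CACGTG by 7.26% and the serum response element by 1.29%. The ZFP36L1 window held TGACGTCA, while BTG1, BTG2 and TOB1 held TGACG without it. BTG2, TOB1 and ZFP36 held 3 GC boxes each, TOB2 held 2 and BTG1 held 1, and BTG1 was the only gene with TATAAA. The windows carried 73.3% (BTG2) and 62.3% (ZFP36L1) G and C. The start site of the ZFP36L1 window shown lies 349 bases upstream of the 5′ end of its MANE transcript, and the further ZFP36L1 window lies farther upstream. Capitals mark TGACG on either strand, and a match says nothing of binding.
BTG2 (chr1:203305269-203305568, plus strand): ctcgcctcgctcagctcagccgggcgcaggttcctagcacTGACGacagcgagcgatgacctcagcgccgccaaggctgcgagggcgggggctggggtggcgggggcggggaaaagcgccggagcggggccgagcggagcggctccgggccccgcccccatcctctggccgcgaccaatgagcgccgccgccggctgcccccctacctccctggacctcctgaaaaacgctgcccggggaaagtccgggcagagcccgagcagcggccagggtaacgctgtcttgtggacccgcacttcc
ZFP36L1 (chr14:68793367-68793666, minus strand): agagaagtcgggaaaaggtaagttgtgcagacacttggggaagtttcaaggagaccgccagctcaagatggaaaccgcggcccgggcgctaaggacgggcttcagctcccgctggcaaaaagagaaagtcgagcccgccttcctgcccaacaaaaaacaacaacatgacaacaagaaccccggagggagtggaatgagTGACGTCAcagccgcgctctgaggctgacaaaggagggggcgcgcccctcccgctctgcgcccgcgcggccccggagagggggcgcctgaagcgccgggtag

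The rest of the decay machinery was described by lists of genes. BTG3, a further family member, lay between 21.3 and 25.5 CPM as group means. The CCR4-NOT complex (12 genes tested), other deadenylases (8), decapping and 5′ to 3′ decay factors (18), other RNA-binding proteins that act on mRNA stability (13 of 14) and mRNAs known as ZFP36 targets through AU-rich elements (19 of 23) made up 70 tested genes. Of these, 6 passed with CX-5461 labelled 10 min (8.57%, against 4.77% of all genes) and 13 with RBI2 labelled 120 min (18.6%, against 18%). With CX-5461 labelled 120 min, 2 passed (2.86%, against 0.0778%). With RBI2 labelled 10 and 30 min and CX-5461 labelled 30 min, 0 of 70 passed with edgeR, where 0.201%, 0.0713% and 0% of all genes passed. DESeq2 called 2, 5 and 0 of the 70, where it called 1.03%, 3.66% and 0.162% of all genes. An unadjusted p under 0.05 was found for 11, 17 and 17, with no share of all genes at that limit.

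The AU-rich target mRNAs held 5 of the 6 calls with CX-5461 labelled 10 min: 4 fell, 1 rose and 14 did not pass. MYC, the growth regulator, fell from 185 ± 10.0 to 33.6 ± 1.89 CPM (SD, n = 2, log2 fold change -2.46, adjusted p = 4.15e-08). IER3, a stress response gene, fell from 120.0 ± 17.1 to 47.5 ± 0.504 CPM (SD, n = 2, -1.34, adjusted p = 0.000178), and BIRC3 and NFKBIZ fell by 1.07 and 0.89 on the log2 scale. BIRC3 stood at -0.70 without control replicate 2 (adjusted p = 0.00191). FOS, the early response transcription factor, rose from 2.27 ± 0.0444 to 9.60 ± 0.524 CPM (SD, n = 2, 2.08, adjusted p = 2.85e-05). The median log2 fold change of the list was -0.25, against -0.04 over all genes. The NFKBIZ call was lost without control replicate 2 (-0.75, adjusted p = 0.0662).

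Across the times of CX-5461, 9 of the 19 AU-rich targets differed, where 2.87% of all genes did, MYC (by up to 2.23) and FOS (1.93) the most. Between the compounds at 10 min, 5 of 19 passed, where 3.06% of all genes did: MYC (2.30), IER3, LIF and NFKBIZ were higher with RBI2, and FOS was lower (-1.37). With CX-5461 labelled 120 min, MYC was lower (-0.58, adjusted p = 0.0139) and FOS higher (1.10, adjusted p = 0.0259) than in the control, the latter lost without control replicate 2 (1.05). With RBI2 labelled 120 min, MYC was lower (-0.44, adjusted p = 0.00811) and CCND1, the cyclin, higher (0.33, adjusted p = 0.0286). These were 2 of 19 targets (10.5%), where 18% of all genes passed. Without control replicate 2 MYC stood at -0.39 (adjusted p = 0.0149), and the CCND1 call was lost (0.33, adjusted p = 0.0543). MYC with CX-5461 labelled 120 min was -0.55 without that library (adjusted p = 0.0255).

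In the CCR4-NOT complex, 4 of 12 genes passed with RBI2 labelled 120 min, where 18% of all genes passed, and 0 of 12 without either RBI2 120 min library (0.448% and 0.988% of all genes). The partners of the BTG/TOB proteins were among them: CNOT7 fell from 148 ± 23.6 to 106 ± 1.76 CPM (SD, n = 2, log2 fold change -0.48, adjusted p = 0.0157) and CNOT8 from 49.8 ± 4.14 to 36.1 ± 2.77 CPM (SD, n = 2, -0.46, adjusted p = 0.0132). Without control replicate 2 these were -0.32 (adjusted p = 0.0292) and -0.38 (adjusted p = 0.0309). CNOT10 fell by 0.28 and TNKS1BP1, which binds the complex, rose by 0.78, and the CNOT10 call was lost without control replicate 2 (adjusted p = 0.133). Both CNOT7 (-0.45) and CNOT8 (-0.37) were also lower with RBI2 than with CX-5461 at 120 min, and TNKS1BP1 was higher (0.55). The control libraries enter that comparison only through the spread. The median over the 12 genes was -0.35 for RBI2 at 120 min against the control, where that of all genes was 0.01.

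Among the remaining lists, DCP2, the catalytic subunit of the decapping enzyme, fell with CX-5461 labelled 10 min (-0.52, adjusted p = 0.041), a call lost without control replicate 2 (-0.41, adjusted p = 0.155), and was higher with RBI2 than with CX-5461 at 10 min (0.53, adjusted p = 0.0484). DCP2 was 1 of 18 decapping genes (5.56%) to pass in either comparison, where 4.77% and 3.06% of all genes passed. With RBI2 labelled 120 min, 3 of 18 decapping genes (16.7%) and 4 of 13 RNA-binding proteins (30.8%) passed, where 18% of all genes passed. The decapping scaffolds EDC3 (0.37) and EDC4 (0.41) rose there and the exonuclease XRN2 fell (-0.30). Of the RNA-binding proteins ZC3H12A, an endonuclease, rose (1.01, adjusted p = 0.019), as did KHSRP (0.37), while RC3H2 (-0.62) and TIA1 (-0.41) fell. Of these 7 genes, EDC3, XRN2, ZC3H12A, RC3H2 and TIA1 lost the call without control replicate 2, where RC3H2 stood at -0.32 (adjusted p = 0.251). EDC3 was lower, at -0.24, with the offset for transcript length (adjusted p = 0.654). Between the compounds at 120 min, 15 of the 70 genes passed (21.4%, against 16.1% of all genes), by list 3 of 12, 2 of 8, 3 of 18, 4 of 13 and 3 of 19. None of the 70 passed without CX-5461 120 min replicate 2 or without RBI2 120 min replicate 1 or 2, where 0.414%, 0.187% and 0.0371% of all genes passed. The largest changes within each list, whatever their rank over all lists, were lower values with RBI2 for CPEB4 (-1.04), which acts on poly(A) tail length, and RC3H2 (-0.82) of the RNA-binding proteins, and the exonuclease XRN1 (-0.99) and DCP2 (-0.51) of the decapping list. PAN3 (-0.74) and ANGEL2 (-0.43) of the other deadenylases were lower as well, as were CXCL8 (-0.65) and FOS (-0.62) of the AU-rich targets, while LIF (0.43) and KHSRP (0.27) were higher.

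**Figure D4:**
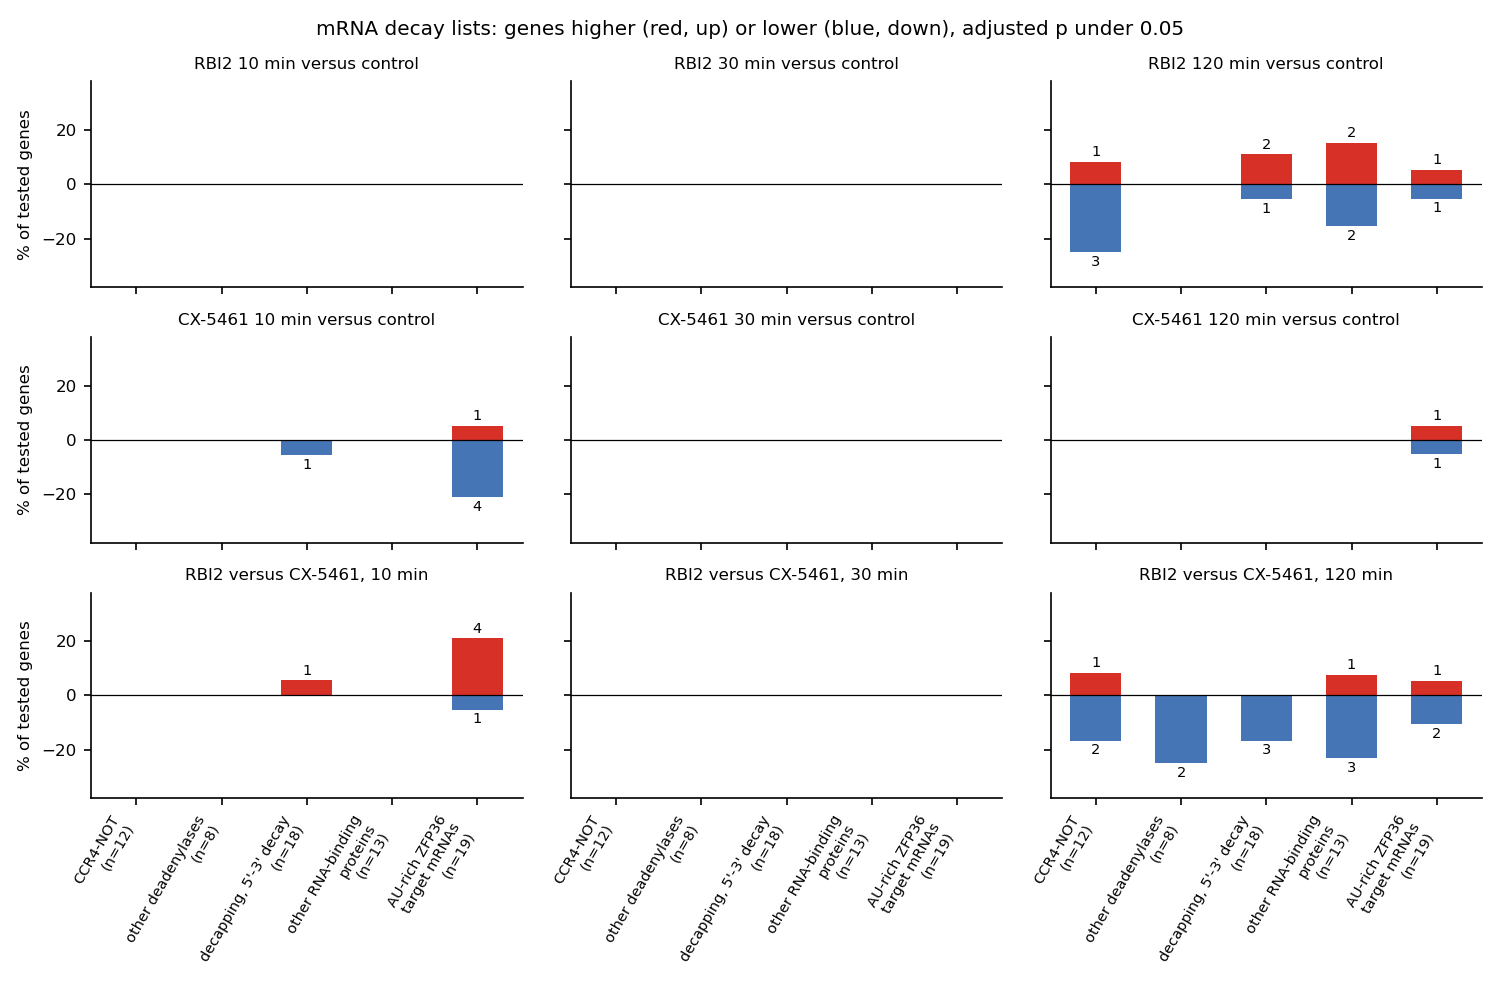
Share of the tested genes of 5 mRNA decay lists that were higher (up, red) or lower (down, blue) at an adjusted p under 0.05, by comparison, with the number of genes at each bar. The AU-rich ZFP36 targets carry 4 lower genes and 1 higher with CX-5461 at 10 min, and the CCR4-NOT complex carries 3 lower and 1 higher with RBI2 at 120 min.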

How the data were processed

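RNA-seq of 14 libraries in 7 groups was used, with group, time and replicate from the labels. The authors removed reads aligned to the rDNA repeat (STAR 2.7.6a, per the submitters' processing notes) and quantified the remaining reads against GRCh38 transcripts by Salmon 1.3.0. The deposited values are, per transcript, estimated counts, which are neither normalized nor whole, TPM values made by the authors with Salmon, the length and the effective length. The authors analysed gene sums with DESeq2 1.28.1.

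Estimated counts were summed per gene through GENCODE 44 (225662 of 228754 transcripts matched; 1.03% to 1.13% of a library's reads had no gene) and rounded. Genes passing filterByExpr (minimum count 10) numbered 15426. edgeR 4.0.16 in R 4.3.3 (TMM, quasi-likelihood F test) was fitted to all libraries in a single model, with Benjamini-Hochberg adjustment over all genes in each of 11 comparisons, and a gene passed at an adjusted p under 0.05. A log2 limit of 1 is an alternative. The coefficient of variation common to all genes was 12.3%. SE and 95% intervals derive from F. CPM use TMM library sizes, with a prior count of 2 on the log2 scale. Alternatives were DESeq2 1.42.0, its size factors, no filter, offsets for transcript length or for GC and length, a block by replicate number, fewer libraries and each library left out.

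The members and the lists were chosen with earlier results of these data known. Named beside the 7 genes were, for each list and comparison, up to 2 genes in each direction with the largest change among those that passed, and the 3 most alike genes for each member. BIRC3, NFKBIZ, LIF, CNOT10, XRN2, KHSRP and TIA1 appear to complete a count of 5 or fewer. Sequences come from GENCODE transcripts and from RefSeq promoter windows. Intervals and counts cover these libraries only.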

Additional observations from a re-analysis of the deposited data

Results flagged for a closer look

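The compounds' effects against the shared control differed, by the direct test between the compounds, for BTG2 (-1.28), TOB1 (-0.79) and ZFP36L1 (0.95) at 10 min. They also differed for ZFP36 (-0.77) at 120 min, each value being RBI2 minus CX-5461 on the log2 scale. At 10 min 3 of 7 genes passed, where 3.06% of all genes passed. At 120 min 1 of 7 passed (14.3%), near the share of all genes (16.1%). The times of CX-5461 differed by edgeR's F test for BTG2, with a largest log2 difference of 1.06, for TOB1 (1.06), TOB2 (0.55) and ZFP36L1 (0.89). In each of these 4 genes the libraries labelled 10 min lay outside the range of the later labels. The genes were chosen by the F test on the same libraries, so this separation adds no support to it. The share of all genes with such a separation was not computed. Outlying libraries were not tested for within groups of 2.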

How the results depend on the processing

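Of 1771 values of the 7 genes under an alternative, 1597 kept their direction and their side of the threshold, 66 lost and 61 gained a call, 47 changed sign without a call and 0 reversed with a call. The numbers of the 7 genes that passed moved by over 1.5 times, or from 0, as follows. All other settings moved a number by at most 1, except the removal of a control library across the times of CX-5461 (6 against 4). Without a filter on low counts, 1 gene passed with RBI2 10 min, RBI2 30 min and CX-5461 30 min against the control, and 2 with RBI2 120 min and CX-5461 120 min, where 1.9% to 11% of all genes passed in these comparisons. With DESeq2, 1 passed with CX-5461 120 min (0.525% of all genes) and across the times of RBI2 (6.35%), and 2 between the compounds at 120 min (16.6%; 2 also with its size factors, 16.4%). With the transcript length offset, 0 passed with RBI2 120 min (1.4% of all genes) and 1 each with CX-5461 10 min (2.26%), between the compounds at 10 min (1.24%) and across the times of CX-5461 (1.3%). With the GC content and length correction, with or without the replicate block, 0 passed with RBI2 120 min (6.85% of all genes, or 6.16% with the block) and 5 with CX-5461 10 min (7.51%, or 7.16%). With only the libraries compared in the model, 0 passed with RBI2 120 min and CX-5461 10 min, where 0% and 0.0208% of all genes passed. In that setting 5 passed between the compounds at 10 min (10.6% of all genes), 2 at 120 min (22.8%) and 1 across the times of RBI2 (22.6%). With the limit of 2-fold, 0 passed with RBI2 120 min and between the compounds at 120 min, 1 at 10 min and 2 across the times of CX-5461. These counts have no share of all genes beside them, which is given at that limit only for CX-5461 10 min against the control (1.64%). EDC3 changed sign with RBI2 120 min under the length offset (-0.24, adjusted p = 0.654). The causes were not tested.

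Leaving out each library in turn gave 0 to 2 genes for RBI2 10 min, 0 to 3 for RBI2 30 min, 0 to 4 for RBI2 120 min, 2 to 5 for CX-5461 10 min, 0 to 3 for CX-5461 30 min and 0 to 2 for CX-5461 120 min, all against the control, where each highest count came without control replicate 1. In that setting 29.1%, 38.3%, 43.1%, 37.7%, 39.3% and 21.5% of all genes passed, in the same order. RBI2 120 min had 0 without either of its own libraries. Between the compounds the counts were 2 to 4 at 10 min, 0 at 30 min and 0 to 4 at 120 min (4 without control replicate 1 and 3 without control replicate 2, where 27.8% and 27.9% of all genes passed, 2 without CX-5461 30 min replicate 1, RBI2 10 min replicate 1 or RBI2 30 min replicate 1, and 0 without CX-5461 120 min replicate 2 or either RBI2 120 min library). Across times the counts also depended on single libraries, and for both compounds they were highest without either control library. For CX-5461 they were lowest without either CX-5461 10 min library. They also fell without CX-5461 30 min replicate 2, either CX-5461 120 min library, or replicate 2 of RBI2 10, 30 or 120 min. A lone control library is assumed to vary like the other groups.

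The replicates share only a number: of 21 pairs of groups, 3 had a correlation of deviations above 0.1 (range -0.179 to 0.18). With the replicate block, TOB2 with CX-5461 10 min (0.44, adjusted p = 0.0517), TOB1 between the compounds at 10 min (-0.80, adjusted p = 0.0654) and TOB2 across the times of CX-5461 (0.55, adjusted p = 0.0624) no longer passed, which makes 2, 2 and 3 genes in these comparisons, where 4.22%, 2.72% and 2.23% of all genes passed. BTG2, at 39 to 132 reads per library, is the gene most limited by depth.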
